A study of Capra hircus with 6 samples.

Results

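The genes described here encode the enzymes that build sterols and isoprenoids. They were the 38 of 15944 listed genes whose KEGG annotation in the deposited table named "Steroid biosynthesis" (19 genes) or "Terpenoid backbone biosynthesis" (19 genes), with no gene under both names. A single further gene that was also annotated to the lysosome was left out. The cells were wild-type primary cultures from Capra hircus skin, SHF-DPCs, that is, the dermal papilla cells of secondary hair follicles, taken from 3-year-old Albas cashmere goats and used at passages 4 to 7. RNA-seq compared 3 libraries of cells given all-trans retinoic acid (ATRA) at 0.0001 M for 24 h with 3 control libraries of cells that received medium alone, and both groups grew in medium with fetal bovine serum. Cells of 3 animals were used. The sample titles and treatment labels name no batch, and they do not say which libraries share an animal.

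All sterols and isoprenoids start from acetyl-CoA. In the mevalonate trunk, acetyl-CoA is joined to HMG-CoA and carried on to mevalonate, which is phosphorylated, decarboxylated and condensed to farnesyl diphosphate. From there a sterol branch leads through squalene and lanosterol to cholesterol, while other branches give the prenyl groups that anchor Ras, Rab and lamin proteins to membranes, the side chain of ubiquinone, and dolichol, the lipid carrier of N-glycosylation. In animal cells the trunk and the sterol branch are classic targets of SREBP-2, a membrane-bound transcription factor that is released when sterols in the endoplasmic reticulum run low. Each gene was placed on the trunk (9 genes), the sterol branch (13 genes), the prenyl and dolichol branch (10 genes) or the use of sterols in esters and vitamin D (6 genes) by the reaction of its enzyme.

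Library totals lay between 35532339 and 38012771 counts, and levels are given as normalized CPM, the CPM value of a count after scaling the library by edgeR's TMM method. The TMM factors were 0.842 to 0.851 in the control libraries and 1.17 to 1.197 in the ATRA libraries, so the choice of scaling moves every value. The median log₂ fold change (log₂FC, ATRA against Control) over the 12588 tested genes was 0.04 with TMM, 0.11 with upper-quartile scaling and 0.52 when counts were divided by library size only. A gene passed the test when edgeR's quasi-likelihood test gave it an adjusted p under 0.05, and it was counted as changed by more than 2-fold when |log₂FC| was above 1 with an unadjusted p under 0.05. SE stands for the standard error of a log₂FC. Among all genes tested, 38.7% passed the test as lower with ATRA and 40.9% as higher. A change of more than 2-fold was found for 17.3% as lower and 13.7% as higher, and those shares are the background for the counts below. The spread between these libraries is the only error the p-values measure.

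The trunk and the sterol branch were lower with ATRA, while the counts of the prenyl and dolichol branch lay near those of all genes. Of the 38 genes, 37 passed edgeR's expression filter. Among them 23 fell and 9 rose, and 5 did not pass the test. More than 2-fold lower were 20 genes, and 4 were more than 2-fold higher. Of the 4, SOAT2 and CYP24A1 passed the filter only through the ATRA libraries. All 20 lower genes lay on the trunk (7 genes), the sterol branch (12 genes) or, for PDSS1, the prenyl branch. The median log₂FC was -1.23 over the 37 genes, against 0.04 over all genes tested. By branch it was -2.04 on the trunk, -2.40 on the sterol branch, 0.15 on the prenyl and dolichol branch and 1.44 among the genes of esters and vitamin D. The last median is over 5 genes and includes SOAT2 and CYP24A1, so it is no result about that group. SOAT1 had a log₂FC of 0.38, CYP2R1 -0.22 and CYP27B1 1.44. Every ATRA library lay below every control library for 23 of the genes, a pattern found for 39.0% of all genes, and above for 9, a pattern found for 41.2% of all genes.

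**Figure D1:**
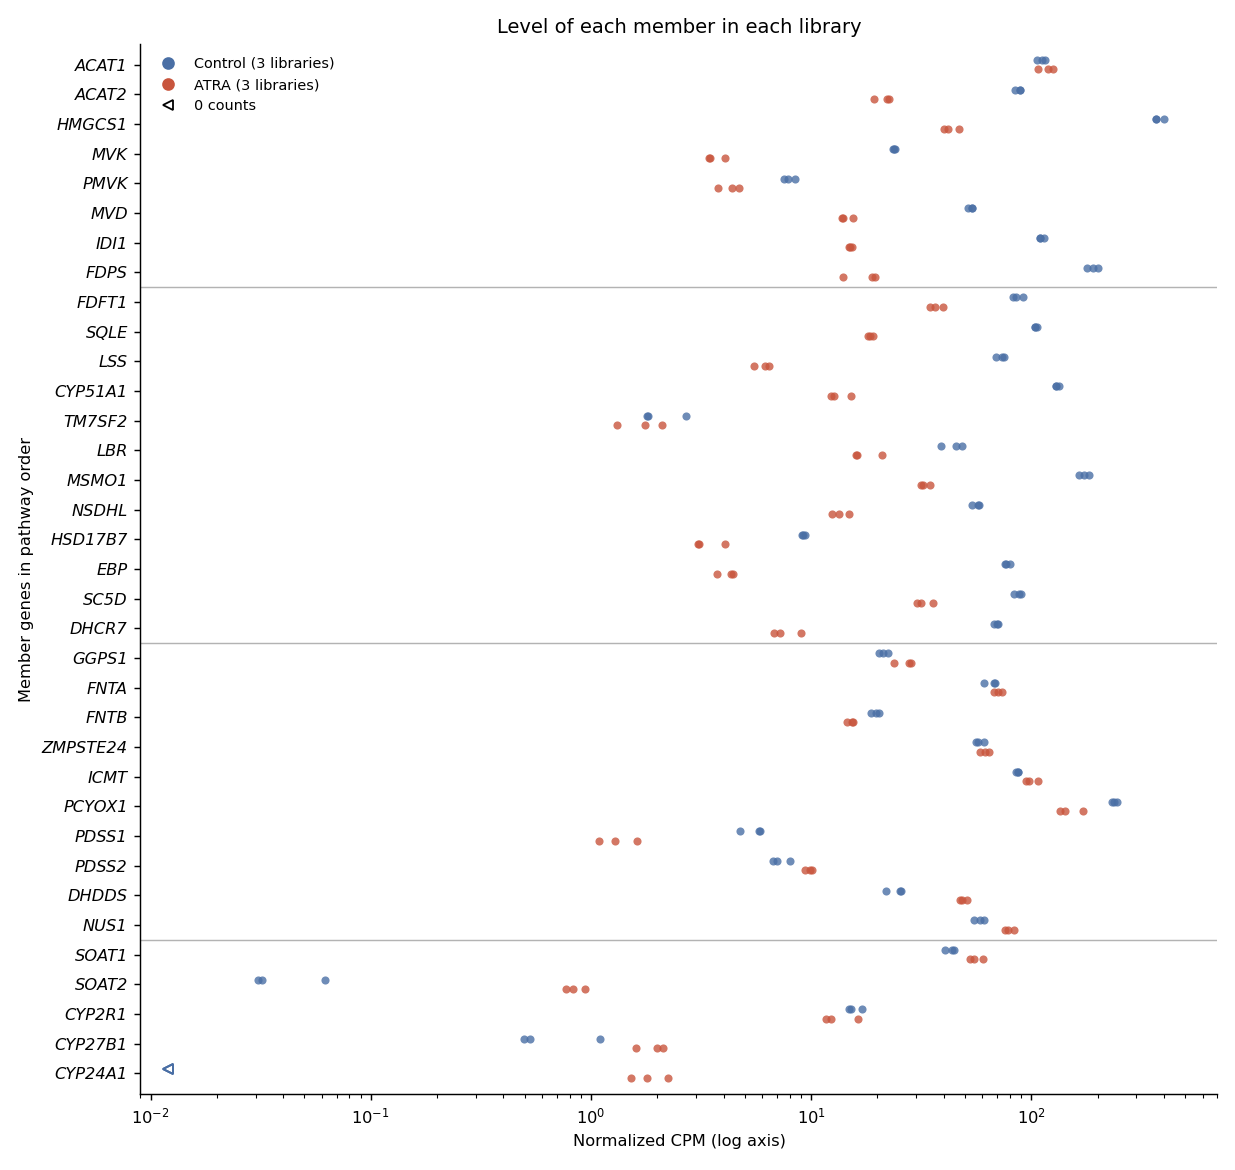
Normalized CPM of 35 tested genes in each library on a log axis, in pathway order from top to bottom, with 3 control libraries in blue and 3 ATRA libraries in red and open triangles for 0 counts. Grey lines part the trunk, the sterol branch, the prenyl and dolichol branch, and the genes of esters and vitamin D. The groups stand apart on the sterol branch except for TM7SF2, and lie close together for most of the prenyl branch.

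**Figure D2:**
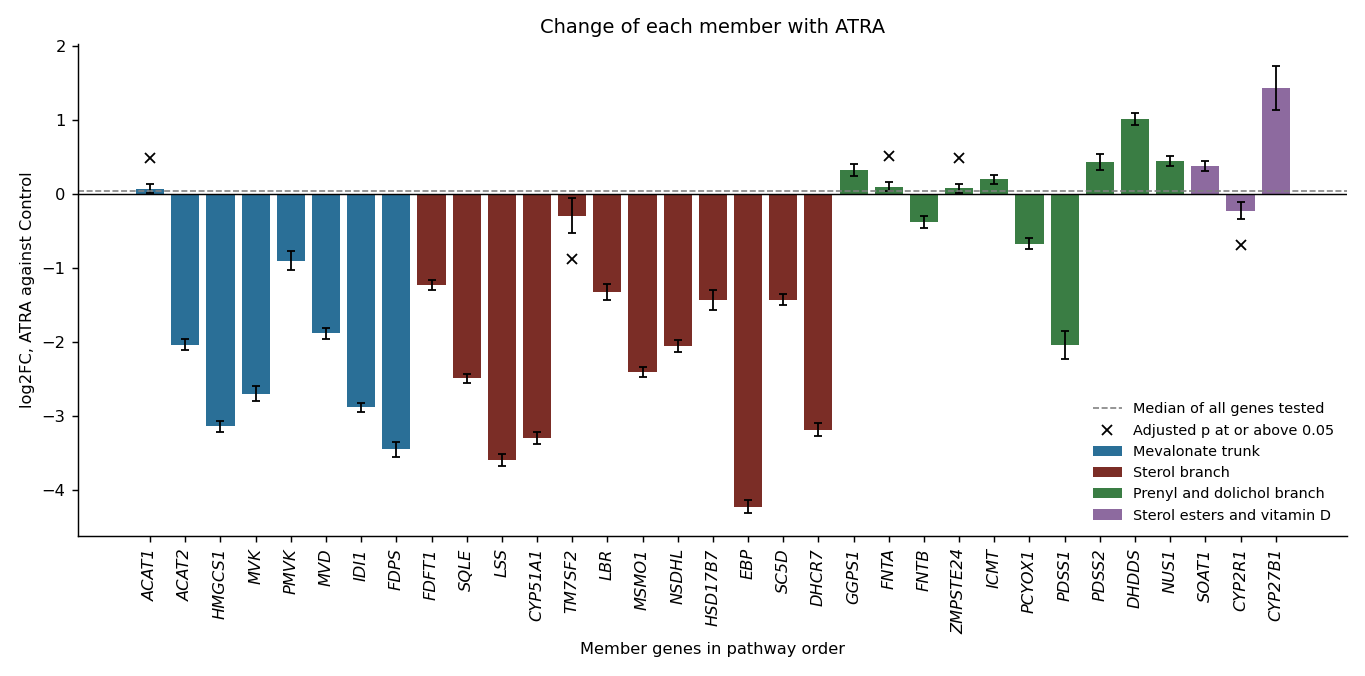
The log₂FC of ATRA against Control (bars) with its SE (lines) for 33 genes in pathway order, coloured by branch. Crosses mark the 5 genes with an adjusted p at or above 0.05, and the dashed line is the median of all genes tested, 0.04. CYP24A1 and SOAT2 are not drawn because their control libraries held 0 to 2 counts. The bars fall along the trunk and sterol branch, deepest at EBP among the genes drawn, and stand near 0 for most of the prenyl branch.

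On the mevalonate trunk, 8 of 9 genes fell and 0 rose. HMGCS1 encodes HMG-CoA synthase, which makes HMG-CoA in the cytosol. It stood at 369, 401 and 367 normalized CPM in the control libraries and at 40.1, 47.1 and 41.97 in the ATRA libraries. No ATRA library came near a control library, and the log₂FC was -3.14 (SE 0.0691, adjusted p = 6.45e-18).

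The reaction that opens the trunk is catalysed by a pair of thiolases in different compartments, and the cytosolic form serves the trunk. ACAT2, the cytosolic enzyme that feeds this pathway, had 88.9, 89.1 and 84.3 CPM in the control libraries and 22.7, 19.3 and 22.04 with ATRA. ACAT1, the mitochondrial enzyme of ketone body and isoleucine breakdown, had 112, 115 and 107 CPM and then 119, 107 and 125. ACAT2 fell to 24.4% of its control level (log₂FC -2.04, SE 0.0733, adjusted p = 9.55e-15). The ACAT1 groups overlapped, with a log₂FC of 0.07 (SE 0.0639, adjusted p = 0.287). With library size only ACAT1 would be called higher, at a log₂FC of 0.55. It was also called higher with upper-quartile scaling (0.15, adjusted p = 0.0381) and without ATRA replicate 2 (0.13, adjusted p = 0.0439). In the reference table ACAT2 overlaps TCP1, a chaperonin gene with a log₂FC of -0.23 (adjusted p = 0.00124), and the strand setting of the counting was not given in the sources used here.

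The kinases and the decarboxylase of the trunk fell by unequal amounts. MVK, mevalonate kinase, went from 23.5, 23.7 and 24 CPM to 4.07, 3.47 and 3.43 (log₂FC -2.70, SE 0.103). PMVK, the next kinase, went from 7.51, 7.85 and 8.47 CPM to 3.77, 4.35 and 4.69 (log₂FC -0.90, SE 0.129). PMVK was thus the one trunk gene that passed the test as lower without reaching 2-fold. MVD, the decarboxylase that makes isopentenyl diphosphate, had a log₂FC of -1.88 (SE 0.0757, adjusted p = 5.38e-14).

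Both enzymes that end the trunk were among the deeper falls. IDI1, listed as LOC102191533, encodes the isomerase that supplies dimethylallyl diphosphate. It had 110, 114 and 109 CPM in the control libraries and 15.3, 14.96 and 14.9 with ATRA, a log₂FC of -2.88 (SE 0.0660, adjusted p = 1.08e-17). FDPS encodes farnesyl diphosphate synthase, whose product stands where the branches part. It had 201, 191 and 179 CPM without ATRA and 19.6, 13.97 and 18.9 with it. At 9.17% of the control level (log₂FC -3.45, SE 0.0994, adjusted p = 3.49e-15), FDPS had the deepest fall of the trunk.

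On the sterol branch, 12 of 13 genes fell, all 12 by more than 2-fold, and 0 rose. FDFT1, squalene synthase, is the first enzyme committed to sterols. It stood at 91.2, 85.2 and 82.7 CPM in the control libraries and at 39.6, 34.7 and 36.6 with ATRA. Its log₂FC of -1.23 (SE 0.0690, adjusted p = 8.61e-12) was within 2 combined SE of that of LBR, with which it cannot be ordered. SQLE, squalene epoxidase, a rate-limiting step of the branch, went from 104, 106 and 104 CPM to 18.1, 18.6 and 19.2. Its log₂FC was -2.49 (SE 0.0648, adjusted p = 7.43e-17). LSS closes the ring to lanosterol, and its 75.5, 69.4 and 73.7 CPM became 6.20, 6.46 and 5.49. That left 8.31% of the control level (log₂FC -3.59, SE 0.0843, adjusted p = 1.59e-17).

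Lanosterol is then stripped of its methyl groups. CYP51A1, listed as LOC102177400, is the cytochrome P450 that removes the methyl at carbon 14, and it fell from 130, 134 and 129 CPM to 12.3, 15.2 and 12.6 (log₂FC -3.29, SE 0.0792). The double bond it leaves is reduced by TM7SF2 or by LBR, which is also the receptor that ties lamin B to the inner nuclear membrane. LBR went from 38.9, 48.2 and 45.5 CPM to 15.9, 20.95 and 16.1 (log₂FC -1.32, SE 0.105, adjusted p = 2.06e-09). TM7SF2 was measured on 58 to 91 counts per library and was the one sterol gene whose groups overlapped, at 1.81 to 2.71 CPM without ATRA and 1.32 to 2.11 with it. Its log₂FC of -0.29 (SE 0.236, adjusted p = 0.269) turned to 0.19 with library size only. The enzymes that remove the methyls at carbon 4 fell together. MSMO1, the oxidase, had a log₂FC of -2.40 (SE 0.0651), NSDHL, the decarboxylase, had -2.05 (SE 0.0804), and HSD17B7, the ketoreductase, had -1.43 (SE 0.136).

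Deep falls also lay among the last steps of the branch. EBP, the isomerase that moves the double bond of the ring, had 80.4, 76.6 and 75.6 CPM in the control libraries and 4.40, 4.31 and 3.72 with ATRA. It was left at 5.35% of its control level (log₂FC -4.22, SE 0.0865, adjusted p = 2.54e-18). DHCR7, which turns 7-dehydrocholesterol into cholesterol, went from 70.2, 67.6 and 70.8 CPM to 6.78, 9.001 and 7.20 (log₂FC -3.18, SE 0.0935). SC5D, the desaturase that makes 7-dehydrocholesterol, kept more of its level, with 83.5, 90.1 and 88.2 CPM and then 31.4, 35.9 and 30.3 (log₂FC -1.42, SE 0.0723).

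The 20 genes more than 2-fold lower did not fall by a common factor. Below 10% of the control level were 4 genes, EBP, LSS and FDPS among them, 10 genes were between 10% and 25%, and 6 were between 25% and 50%. A fall of more than 4-fold (log₂FC under -2) was found for 14 of them, against 8.22% of all genes tested. In the other direction SOAT2 and CYP24A1, 2 genes, passed 4-fold, against 5.31% of all genes tested. Both passed the expression filter only through the ATRA libraries. When the 20 genes are ordered by log₂FC, 5 of the 19 gaps between neighbours were larger than 2 combined standard errors. They include those that set EBP apart from LSS, HMGCS1 from IDI1, MSMO1 from NSDHL, and MVD from HSD17B7. The other 14 gaps were not, so that neighbours such as LSS and FDPS, or DHCR7 and HMGCS1, cannot be ordered by these libraries.

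Of the 10 genes of the prenyl and dolichol branch, 3 fell, 5 rose and 2 did not pass the test. These counts lie near the background of 38.7% lower and 40.9% higher over all genes tested, so they are no result about the branch. GGPS1 makes geranylgeranyl diphosphate from farnesyl diphosphate. It had 20.2, 22.3 and 21.2 CPM in the control libraries and 23.8, 28.4 and 27.8 with ATRA. Every ATRA library lay above the controls, but the rise was small (log₂FC 0.33, SE 0.0851, adjusted p = 0.00181), and with R's t.test function the adjusted p was 0.0532.

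Among the genes that attach and finish prenyl groups, calls depended on scaling. FNTA, the alpha subunit shared by the farnesyl and type I geranylgeranyl transferases, had a log₂FC of 0.10 (SE 0.0654, adjusted p = 0.150). FNTB, the beta subunit of farnesyltransferase listed as LOC102189488, was lower, at a log₂FC of -0.37 (SE 0.0833, adjusted p = 0.000505), and its sign turned to 0.11 with library size only. ZMPSTE24, the protease that trims prenylated proteins and matures lamin A, had 0.08 (SE 0.0648, adjusted p = 0.267). FNTA and ZMPSTE24 were called higher with upper-quartile scaling (adjusted p = 0.0181 and 0.0321) and with library size only (log₂FC 0.58 and 0.56). ICMT, which methylates the trimmed end, had 0.20 (SE 0.0611, adjusted p = 0.00573), and it did not pass with R's t.test function (adjusted p = 0.0817). PCYOX1, which breaks down the prenylcysteine of worn proteins, went from 232, 245 and 237 CPM to 135, 171 and 143 (log₂FC -0.67, SE 0.0734, adjusted p = 1.68e-07). It overlaps SNRPG, a splicing factor gene with a log₂FC of -0.07 (adjusted p = 0.549). None of these 5 genes changed by more than 2-fold under the main scaling.

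PDSS1 and PDSS2 together make the decaprenyl side chain of ubiquinone. PDSS1 had 4.77, 5.87 and 5.79 CPM without ATRA and 1.62, 1.29 and 1.09 with it, while PDSS2 had 6.99, 8.01 and 6.69 and then 9.37, 10.1 and 9.84. One subunit gene fell (log₂FC -2.03, SE 0.186, adjusted p = 1.06e-08) as the other rose (log₂FC 0.44, SE 0.111, adjusted p = 0.00162). PDSS1 overlaps ABI1 in the reference table, a gene at 79.2 CPM in the control group and 71.9 with ATRA (log₂FC -0.14, adjusted p = 0.0639), and reads of the pair may not be told apart. DHDDS and NUS1 form the cis-prenyltransferase that starts dolichol, and both rose. DHDDS went from 25.6, 21.98 and 25.3 CPM to 51.2, 48.5 and 47.6 (log₂FC 1.02, SE 0.0765, adjusted p = 6.54e-10). NUS1 went from 54.8, 60.7 and 58.3 CPM to 75.6, 83.2 and 78.1 (log₂FC 0.45, SE 0.0649, adjusted p = 4.98e-06). DHDDS stands close to the 2-fold line, and its log₂FC was between 0.9437 and 1.496 over the alternatives. It overlaps HMGN2 in the reference table, a chromatin protein gene that fell by 1.24 on the log2 scale (adjusted p = 1.92e-12).

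Genes that use sterols in esters or turn over vitamin D rose or did not pass the test. SOAT1, the widely expressed enzyme that esterifies cholesterol for storage in lipid droplets, went from 40.6, 43.8 and 44.4 CPM to 52.4, 60.5 and 54.8 (log₂FC 0.38, SE 0.0717, adjusted p = 9.45e-05). SOAT2, the form known from liver and intestine, had 1, 1 and 2 counts in the control libraries and 36, 34 and 39 with ATRA. The ratio of its scaled counts was 20.2 (95% counting interval 7.68 to 75.5), at a level that stayed under 1 CPM. CYP24A1, listed as LOC102178921, encodes the 24-hydroxylase that inactivates vitamin D and is a textbook target of the vitamin D receptor. It had 0 counts in all 3 control libraries and 97, 79 and 63 counts with ATRA. That makes it at least 19.7-fold higher against a floor of 3 counts per library. SOAT2 and CYP24A1 passed the expression filter only through their ATRA libraries. The counts of genes that rose include both, but their test results lend those counts no support. CYP27B1, the activating 1-alpha-hydroxylase listed as LOC102170758, had 34, 16 and 17 counts and then 86, 94 and 66, a log₂FC of 1.44 (SE 0.293, adjusted p = 0.000212). CYP2R1, the 25-hydroxylase listed as LOC102190621, had a log₂FC of -0.22 (SE 0.116, adjusted p = 0.0850). Without ATRA replicate 2 CYP2R1 passed the test as lower (log₂FC -0.40), and with library size only its sign turned (0.26). CEL, a pancreatic sterol ester lipase, had 1 count over all 6 libraries and was not tested.

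**Figure D3:**
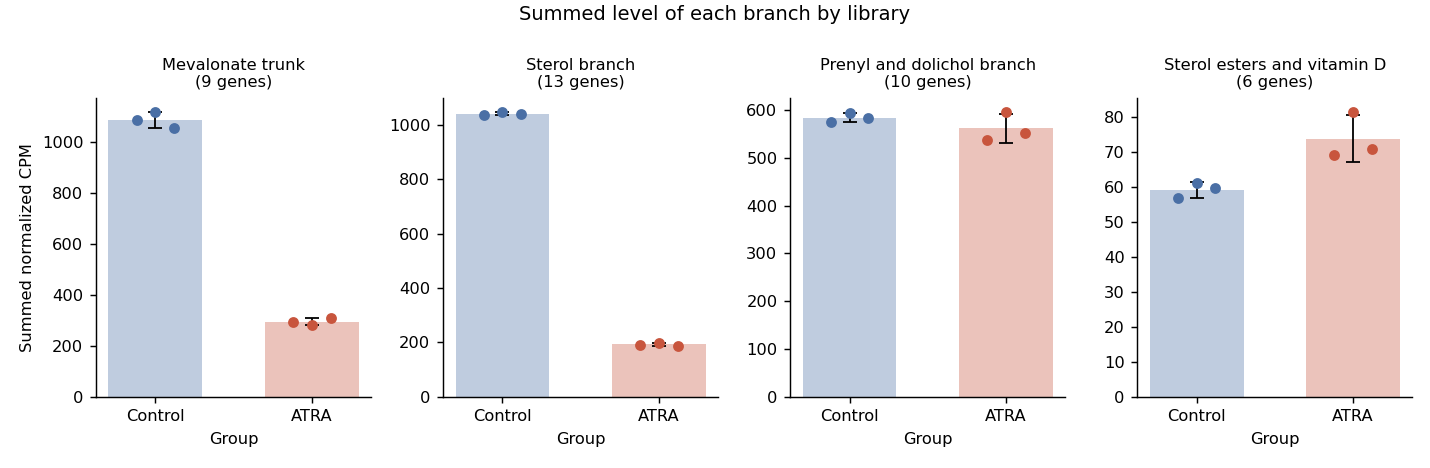
Summed normalized CPM of each branch in each library (points), with the mean of 3 libraries (bars, from 0) and the SD (lines). The trunk and the sterol branch are low in all 3 ATRA libraries, the prenyl and dolichol branch overlaps between the groups, and the genes of esters and vitamin D stand higher with ATRA.

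Summed over its genes, the trunk took 1086 ± 30.6 CPM without ATRA and 295 ± 12.4 CPM with it (SD, n = 3 each). The sterol branch took 1041 ± 5.30 and 192 ± 5.78 (SD, n = 3 each). On that branch the control libraries exceeded the ATRA libraries 5.41 times, and on the trunk 3.68 times. The prenyl and dolichol branch took 584 ± 9.67 and 562 ± 30.3 CPM (SD, n = 3 each), and its groups overlapped. Its direction depended on scaling, since as a share of all counts it held 0.0495% ± 0.00110 without ATRA and 0.0663% ± 0.00430 with it (SD, n = 3 each). A share of all counts equals scaling by library size only. By that share all 38 genes held 0.235% ± 0.00448 of the control libraries and 0.133% ± 0.00524 of the ATRA libraries (SD, n = 3 each). These sums are led by the more abundant genes. In bulk RNA, fewer cells that carry a transcript and less of it per cell cannot be told apart.

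Ratios of member genes within a library do not depend on scaling, and they were read only for their change between the groups, since transcript lengths were not at hand to compare levels between genes. At the branch point, FDPS to GGPS1 went from 8.99 ± 0.821 to 0.664 ± 0.165 (SD, n = 3 each), and FDPS to FDFT1 from 2.20 ± 0.0359 to 0.471 ± 0.0600 (SD, n = 3 each). SQLE to FDFT1 went from 1.21 ± 0.0666 to 0.506 ± 0.0418, and PDSS1 to PDSS2 from 0.760 ± 0.0944 to 0.137 ± 0.0322 (SD, n = 3 each). The 4 pairs were picked after the values were seen, so these ratios describe the libraries and carry no test.

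**Figure D4:**
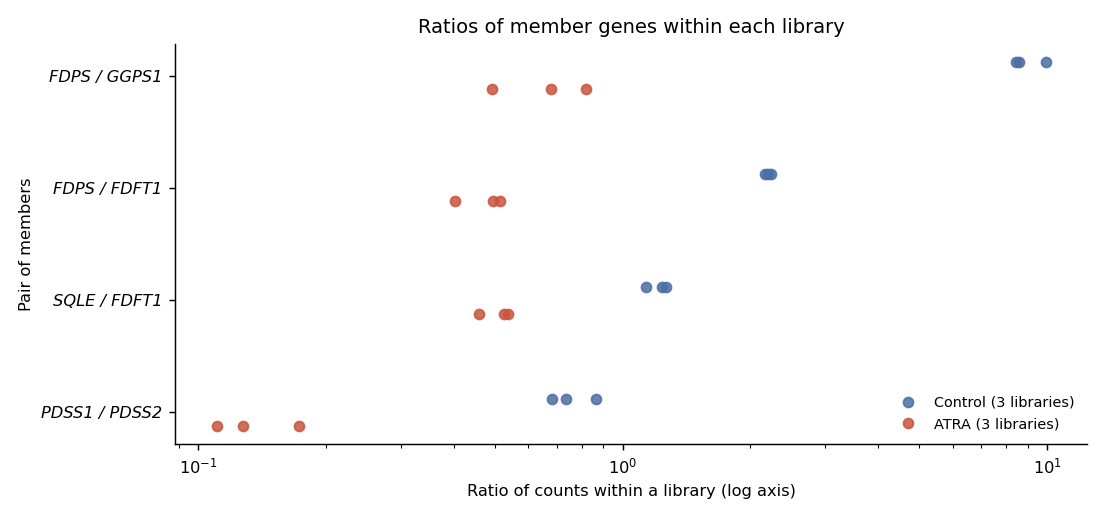
Ratio of the counts of 2 member genes in each library, on a log axis, for 4 pairs, with control libraries in blue and ATRA libraries in red. A ratio needs no scaling between libraries. The 3 red points lie apart from the 3 blue points in every pair, furthest for FDPS to GGPS1 (8.99 in the control group and 0.664 with ATRA, as means).

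GO terms were not used to choose the genes, and most of those read here give a place in the cell. The GO term endoplasmic reticulum membrane was carried by 17 of the tested genes, with 11 lower, 5 higher and a median log₂FC of -1.42. The 508 other tested genes with that term had 179 lower, 242 higher and a median of 0.13. Cytosol was carried by 7 of the genes (6 lower and 1 higher, median -2.04). The 2703 others had 1108 lower, 1048 higher and a median of -0.01. IDI1, MVK and PMVK carried the term peroxisome, and all 3 fell. The 65 other peroxisome genes had 29 lower, 22 higher and a median of -0.17. Cholesterol biosynthetic process was carried by 19 of the genes, of which 18 fell, and by 6 others, of which 3 fell and 2 rose. That term overlaps in meaning with the KEGG names that chose the genes, so it adds no separate support. Mitochondrion was carried by ACAT1, ACAT2 and CYP24A1 (1 lower and 1 higher, median 0.07, against 0.05 for 760 others). ACAT2, which fell, also carried the term cytosol. CYP24A1 here, and SOAT2 under endoplasmic reticulum membrane, passed the expression filter only through the ATRA libraries. Nuclear inner membrane was carried by LBR, TM7SF2 and ZMPSTE24 (1 lower, median -0.29, against 0.01 for 30 others).

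Other genes around the pathway came from lists written from textbook roles. Over all genes tested, 38.7% fell and 40.9% rose, and the counts of these small lists are described beside those shares without a test. Among 14 tested genes of SREBP control and sterol uptake, 9 fell and 4 rose. SREBF2, which encodes SREBP-2, had a log₂FC of -1.58 (300.4 CPM in the control group and 100.1 with ATRA, as means of 3 libraries), and SREBF1 had 0.38. INSIG1, the sterol-sensing anchor that is itself an SREBP target, had -1.50. All 3 passed the test, with the groups apart. NPC1, which exports cholesterol from lysosomes and was singled out after its value was seen, rose (log₂FC 1.53, SE 0.0703). Of 4 genes that supply acetyl-CoA, 3 fell and 1 rose: ACLY, the citrate lyase, had -0.99, AACS, which salvages acetoacetate, had -1.403, SLC25A1, the citrate carrier, had -1.60, and ACSS2, which activates acetate, had 0.78.

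Of 8 tested genes of sterol efflux and oxidation, 3 fell and 5 rose. CYP46A1 is among the 5 and passed the expression filter only through the ATRA libraries. With a filter of at least 1 CPM in 3 libraries, 4 rose. The shares over all genes tested were 38.7% lower and 40.9% higher, for this list and the next, and neither list was tested. ABCA1, the exporter that loads cholesterol onto lipoproteins, stood at 6.14 CPM in the control group and 43.9 with ATRA (log₂FC 2.84, SE 0.124, adjusted p = 3.53e-13). ABCG1 had 1 count in all, and NR1H3, the liver X receptor alpha, rose (log₂FC 0.28). Of 8 tested accessory genes, which hand electrons to the oxidases of the sterol branch or bind its enzymes, 2 fell and 5 rose. POR, the reductase of microsomal P450 enzymes listed as LOC102181832, had a log₂FC of 0.82 (adjusted p = 9.62e-10), and PGRMC1, a P450 partner, had 0.46. ERG28, the scaffold of the C4 demethylation enzymes, listed under its older name as C10H14orf1, had -0.43. With library size only, 0 of the 8 fell and 7 rose.

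Of 19 tested enzymes that use prenyl chains, 4 fell, 8 rose and 7 did not pass. The 8 of 19 that rose are close to the 40.9% of all genes tested. PGGT1B, the beta subunit of the type I geranylgeranyl transferase, had a log₂FC of -0.26 (adjusted p = 0.0197), RABGGTA, of the Rab transferase, had 0.16 (adjusted p = 0.102), and DOLK, dolichol kinase, had 0.17 (adjusted p = 0.0370). COQ2, which joins the side chain made by PDSS1 and PDSS2 to the ring of ubiquinone, was the exception in size. It went from 28.3 to 9.87 CPM, as means of 3 libraries (log₂FC -1.52, SE 0.0866, adjusted p = 1.07e-11), and was the one gene of this list more than 2-fold lower. The count of 8 that rose was 5 without Control replicate 3, and with library size only 1 fell and 15 rose.

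Markers of the cell type moved with the treatment. Of the dermal papilla markers, VCAN, ACTA2 and RSPO3 were tested and all 3 fell. ALPL, PROM1 and CORIN had 0 or 1 counts and SOX2 0 to 16 counts in each library. The paper identified the cells by staining for the proteins α-SMA and CD133, which ACTA2 and PROM1 encode. In RNA the label thus rests on part of its dermal papilla markers. The summed level of 7 such markers was 8080 to 8976 CPM in the control libraries and 111 to 119 with ATRA, and all 7 mesenchymal markers fell (82470 to 83460 and 4469 to 4807 CPM). VIM, vimentin, fell by 3.59 on the log2 scale. Markers of other cells stayed low. The summed levels in the control and ATRA libraries were 3.11 to 4.98 and 5.37 to 5.97 CPM for 6 keratinocyte genes, 0.903 to 1.24 and 6.19 to 9.16 for 5 endothelial genes, and 2.69 to 5.86 and 10.8 to 11.98 for 3 leukocyte genes. They were 3.80 to 4.27 and 1.97 to 2.34 CPM for 1 melanocyte gene, 1.27 to 2.13 and 2.45 to 3.22 for 3 adipocyte genes, and at most 0.145 for 2 sebocyte genes. CDH5, CDH1, TP63 and AWAT1 had 0 to 2 counts in every library, and KRT5 had 2 to 7 counts in the control libraries and 0 with ATRA. Some other markers on these lists rose and some fell. PECAM1, which makes up most of the endothelial sum with ATRA, had 0 counts in the control libraries and 242, 340 and 206 with ATRA, and TEK had a log₂FC of 0.87. KRT10 of the keratinocyte list had 0.82, and CD68 of the leukocyte list had 1.41. On the endothelial list KDR fell from 5, 6 and 10 counts to 2, 1 and 0, and VWF had 0.06 (adjusted p = 0.909). KRT14 of the keratinocyte list fell from 20, 14 and 10 counts to 3, 0 and 0. Of the adipocyte genes, LEP fell from 9, 13 and 3 counts to 0, while PLIN1 (log₂FC 1.20) and ADIPOQ (log₂FC 1.04) rose. KDR, KRT14 and LEP did not pass the expression filter. The part of these shifts in the levels of the sterol and isoprenoid genes was not tested.

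**Figure D5:**
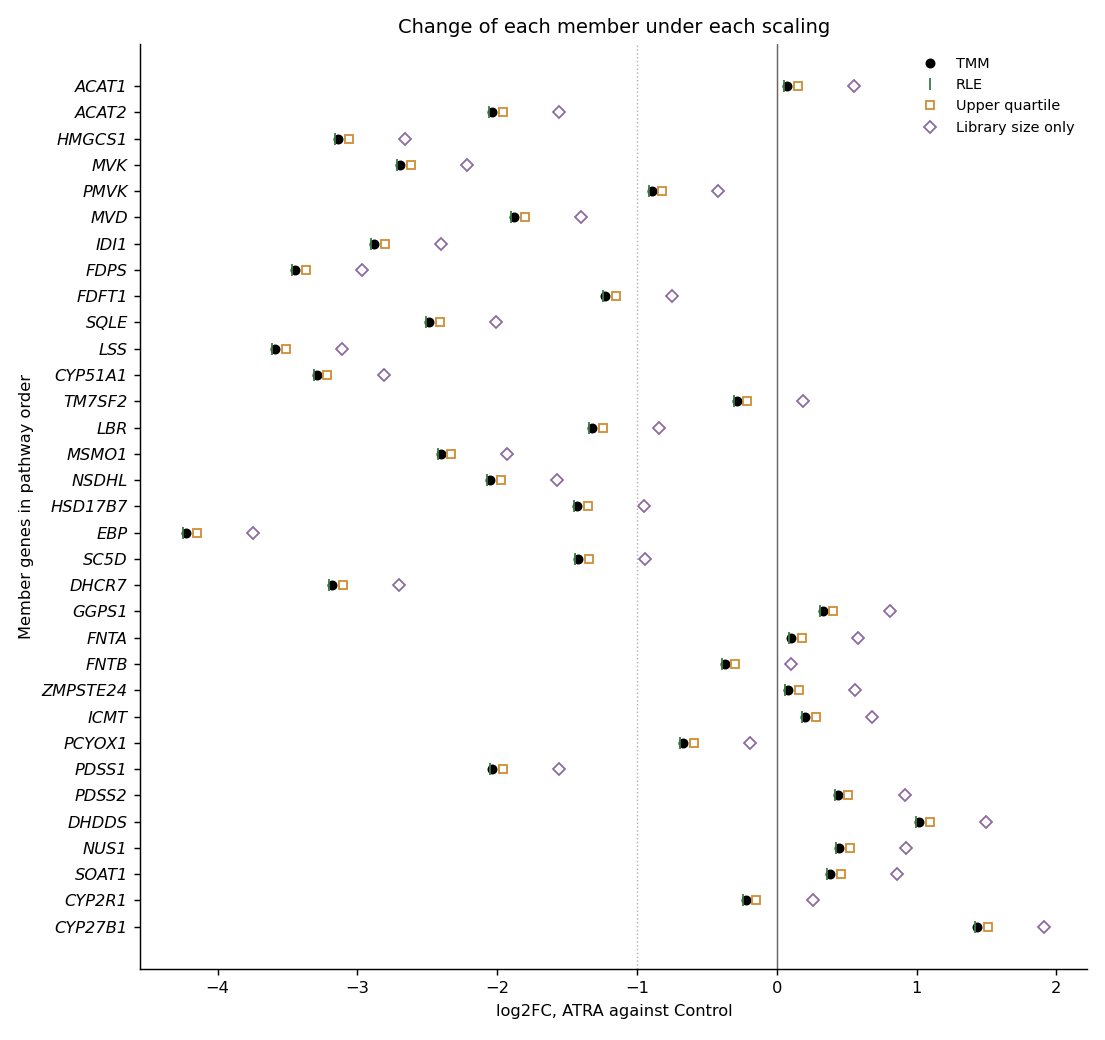
The log₂FC of 33 genes under TMM (black), RLE (green), upper-quartile scaling (orange) and library size only (purple), in pathway order, with the dotted line at -1. Library size only moves the genes to the right, most of them by about the same amount. FNTB, TM7SF2 and CYP2R1 cross 0, and FDFT1, LBR, HSD17B7 and SC5D cross the dotted line.

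Scaling set how many genes passed the 2-fold line, not the direction of the genes that passed it. With library size only, 15 genes were more than 2-fold lower instead of 20, and with RLE, the scaling of DESeq2, 20 were. FDFT1, LBR, HSD17B7 and SC5D were among those that dropped below the line, at a log₂FC from -0.95 to -0.75, and all 4 still passed the test. FDPS kept a log₂FC between -3.54 and -2.97 over the alternatives tried. On the prenyl and dolichol branch library size only changed the counts from 3 lower and 5 higher to 2 lower and 7 higher.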

How the data were processed

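Poly(A) RNA of SHF-DPCs was sequenced with ATRA (3 libraries) and without it (3 libraries). The authors deposited whole-number counts of reads per gene, not normalized, made after trimming with fastp and TrimGalore. The submitters' processing notes name HISAT2, featureCounts and DESeq2. Genome build, annotation and strand setting are not given in the sources used here, so no coordinates are printed. The RefSeq table (ARS1.2) served to find overlapping genes. Of the 38 genes, 2 were not on a placed chromosome there and were not checked, and 5 of the others had an overlapping gene.

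From the counts, edgeR's filter kept 12588 of 15944 genes. TMM scaling and the robust quasi-likelihood test (two-sided, 6 libraries, no covariate) followed, with Benjamini-Hochberg adjustment over all tested genes. The thresholds on |log₂FC| and p are those of the study's methods, whose R t.test function was run as an alternative beside DESeq2, other scalings, filters and prior counts, the replicate block and leaving out each library. Fits had a prior count of 0.125. The SE is |log₂FC| over the square root of F. The floor is 3 counts per library, and intervals and floors cover counting error only. Libraries of a group differed by more than sampling noise (chi-square per degree of freedom 5.01 to 18.4). The scripts were tested on simulated data.

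The genes and lists were chosen with earlier results of these data known. Some genes are counted but not reported by name here. Named by role were genes of the 38 and up to 4 genes of each other pathway list. NPC1, CYP27A1, CYP7B1, CH25H, CYP46A1, CYB5A, CYB5B and CYB5R3 were named outside that rule. The 4 ratios were chosen after values were seen. HHIP, KRT1, PLIN5, PTPRC, TYR, DCT and MLANA were not analysed here. Tools were edgeR 4.0.16 with limma 3.58.1 and, as an alternative, DESeq2 1.42.0, all in R 4.3.3, and matplotlib 3.10.9 in Python 3.11.15.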

Additional observations from a re-analysis of the deposited data

How the results depend on the processing

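Of the 37 tested genes, each recomputed under 15 alternatives where the filter kept it, 3 changed sign, all with library size only: TM7SF2 to 0.19, FNTB to 0.11 and CYP2R1 to 0.26. The genes lower by more than 2-fold numbered 15 to 20 and those higher 1 to 4, the lowest when R's t.test was run on log2(CPM + 1). A threshold of |log₂FC| above 2 left 14 and 2, the adjusted p alone gave 23 and 9, "Steroid biosynthesis" alone held 12 and 3, and "Terpenoid backbone biosynthesis" alone 8 and 1. Leaving out each library gave 20 genes lower in every case. It left 0 to 1 trunk genes that rose (1 without ATRA replicate 2, ACAT1) and 5 to 9 users of prenyl chains that rose.

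With library size only the median log₂FC was -0.75 over all genes of the pathway, -1.56 on the trunk, -1.93 on the sterol branch and 0.63 on the prenyl branch, 1 trunk gene rose, 0 accessory genes fell, and 1 user of prenyl chains fell while 15 rose. Of all genes tested, 26.9% were then higher by more than 2-fold, and 22.7% fell and 62.9% rose at the adjusted threshold. With upper-quartile scaling the medians were -1.15, -2.33 on the sterol branch and 0.23 on the prenyl branch, with 1 trunk gene that rose. With no filter on low counts the median was -1.16, since CEL entered. R's t.test function found 3 prenyl genes, 3 efflux genes and 4 users of prenyl chains that rose, 1 user that fell, and 8.68% of all genes higher by more than 2-fold. The cause of the lower counts was not tested.

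Replicate numbers are shared by the groups, but same-numbered libraries did not deviate together (correlations 0.09, 0.03 and -0.08), and Control replicate 3 correlated best with ATRA replicate 2. With the replicate number as a block, 24 genes were lower and 9 higher at the adjusted threshold, 20 and 4 by more than 2-fold, the median was -1.23, and CYP2R1 was the one gene whose call changed (adjusted p = 0.0388). Genes at or near 0 counts, SOAT2 and CYP24A1, have no firm fold at this depth.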

Other observations

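The enzymes that oxidise cholesterol, which belong to neither KEGG name, were chosen for mention once their values were known. CYP27A1, the mitochondrial sterol 26-hydroxylase listed as LOC102177672, had 112 normalized CPM in the control group and 9.36 with ATRA, as means of 3 libraries. Its log₂FC of -3.59 (SE 0.0918, adjusted p = 5.76e-17, edgeR) is close in size to that of LSS. CYP7B1, which hydroxylates oxysterols and is listed as LOC102191152, had a log₂FC of -1.49 (SE 0.147), and CH25H, the cholesterol 25-hydroxylase, had -0.996 (SE 0.0582). CYP46A1, the cholesterol 24-hydroxylase known from brain and listed as LOC102178217, had 1, 1 and 0 counts without ATRA and 44, 16 and 46 with it. The ratio of its scaled counts was 39.3 (95% counting interval 10.6 to 329). CYP46A1 passed the expression filter only through the ATRA libraries.

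Among the electron donors of the pathway, CYB5A, the cytochrome b5 of the endoplasmic reticulum, had 17.9 CPM in the control group and 52.2 with ATRA (log₂FC 1.55, SE 0.0777). CYB5B, its mitochondrial form listed as LOC102172837, had a log₂FC of -0.01 (SE 0.0558, adjusted p = 0.912). CYB5R3, another accessory gene, listed as LOC102173645, fell (log₂FC -0.27, SE 0.0552, adjusted p = 0.00019).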
